A study of Mus musculus with 15 samples.

Results

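The H3K36me2 libraries of EL4 cells are 2 of the 15 samples of a study that set chromatin accessibility beside histone modifications. They were chosen by their antibody label, and their called intervals were described over the spans of 20665 protein-coding genes on the 19 autosomes, out of 21900 such genes on all chromosomes. EL4 is a mouse T cell lymphoma line, and the labels give the strain as C57BL/6N. The cells were grown in serum-containing medium, and the labels name no drug, genotype change or time point. Chromatin was cross-linked with formaldehyde and precipitated with the H3K36me2 antibody Millipore 07-274. The same line was profiled for H3K4me3, H3K9ac, H3K27ac, H3K27me3 and open chromatin (ATAC-seq), each in 2 replicates. All libraries come from 1 line, and the study speaks of technical replicates where it describes how peaks were merged, so the spread between replicates may be technical only. Each list gives only where intervals start and end. The number of reads behind an interval is therefore unknown, and no test over genes was run.

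H3K36me2 is the dimethylated form of lysine 36 of histone H3. The enzymes NSD1, NSD2, NSD3 and ASH1L write it, SETD2 adds a further methyl group over transcribed gene bodies, and KDM2A and KDM2B remove it. The mark lies in wide domains over genes and between them, and nucleosomes that carry it are poor substrates for the Polycomb repressive complex PRC2, which writes H3K27me3. H3K4me3 marks the promoters of active and poised genes.

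The labelled cell type was checked with H3K4me3 peaks at the ends of marker genes, where an end reaches from 3 kb outside the gene to 2 kb inside it. Of 12 T lymphoblast markers, 11 had such a peak, and Cd247 did not. Of 6 B cell markers, Cd79a and Ebf1 had one, and of 6 myeloid markers, Lyz2 and Spi1 had one, so the T cell label was borne out by most of its markers while 4 markers of other lineages also carried a peak. At least 50% of the span was covered by H3K36me2 in both replicates for 6 of the T lymphoblast markers and for 0 of the B cell and myeloid markers. The share was 25.9% over all genes, 46.7% over genes with an H3K4me3 peak at an end and 6.23% over genes without. The 6 of 12 was thus near the share of genes with a peak, and most B cell and myeloid markers had no peak.

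Replicate 1 held 38566 autosomal H3K36me2 intervals with a median width of 5399 bp, and replicate 2 held 40476 with a median width of 4999 bp. They covered 304 and 302 Mb. Both replicates covered the same 220.2 Mb, and either covered 386 Mb, so that 72.4% of the base pairs of replicate 1 and 72.9% of those of replicate 2 lay in the other. The ratio of shared to combined base pairs was 0.570 for H3K36me2, 0.499 for H3K27me3, the other broad mark, and 0.923 for H3K4me3. The differences between marks were not tested. Of the H3K36me2 base pairs, 76.8% in replicate 1 and 76.9% in replicate 2 lay within protein-coding gene spans, as did 80.6% of those covered in both. They filled 23.8% and 23.6% of all gene base pairs.

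A gene was called covered where intervals took up at least 50% of its span. Replicate 1 covered 6334 genes (30.7%) and replicate 2 covered 6265 (30.3%), with a mean of 30.5% ± 0.236 (SD, n = 2 replicates). Both replicates covered 5344 genes, or 25.9% of the genes measured. A further 1911 genes (9.25%) were covered in 1 replicate only, 990 of them in replicate 1 and 921 in replicate 2. Of the genes covered in either replicate, 73.7% were thus covered in both. Another 3738 genes (18.1%) held some H3K36me2 without reaching 50% in either replicate, and 9672 genes (46.8%) held none in both. Most genes lay toward the ends of the scale: 2354 genes in replicate 1 and 2148 in replicate 2 were covered over more than 90% of the span, against 739 and 793 between 40 and 50%.

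**Figure D1:**
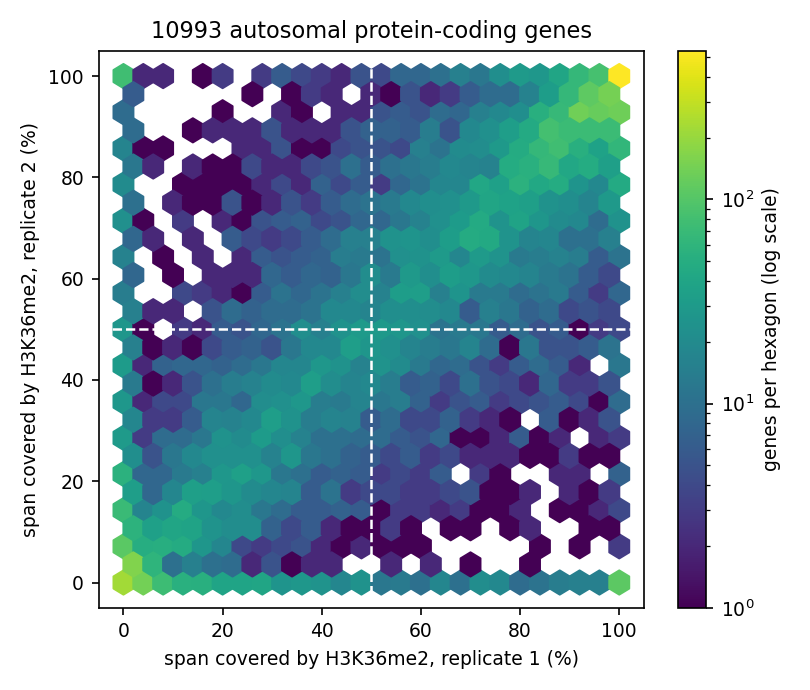
Percent of the gene span covered by H3K36me2 in replicate 1 (horizontal) and replicate 2 (vertical) for the 10993 autosomal protein-coding genes with any coverage, as hexagons coloured by the number of genes on a log scale. White dashed lines mark 50%, with the 5344 genes covered in both replicates at the upper right. Genes crowd at the upper right corner and along the diagonal, and some lie on an axis, with coverage in 1 replicate and none in the other.

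Within the genes covered in both replicates, the values of a gene differed by a median of 6.09 percentage points, and the median coverage was 85.9% in replicate 1 and 84.8% in replicate 2. Full coverage of the span was found for 1049 genes in replicate 1, 832 in replicate 2 and 453 in both. The covered stretches were not always the same ones. When only base pairs covered in both replicates were counted, 4741 genes reached 50%, and 603 genes covered in each replicate did not.

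Genes covered in 1 replicate only were mostly not all-or-nothing differences. In the other replicate 60.02% of them held between 25 and 50%, with a median of 32.4% over all of them, but 523 (27.4%) held 0%. Among spans of 20 kb or more, of which 28.7% were covered in both replicates, a wide gap in favour of replicate 1 was found at Cir1, a transcriptional corepressor gene with 78.0% in replicate 1 and 0% in replicate 2. In the opposite direction, Car5a, a mitochondrial carbonic anhydrase, had 0% in replicate 1 and 93.0% in replicate 2. The Notch ligand gene Jag2 had 0% and 71.8%. At such genes the 2 lists contradict each other, and nothing in the lists tells which is nearer to the cells.

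Genes close to the threshold differ little on either side of it. Just inside it, Luc7l had 50.0% in replicate 1 and 57.4% in replicate 2, and Zfp592 had 80.8% and 50.0%. Just outside it, the atlastin gene Atl1 had 60.8% and 50.0%, which was 49.998% before rounding, and Aig1 had 65.8% and 50.0%, which was 49.993%.

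H3K36me2 coverage depended on gene length without following it in 1 direction. Genes covered in both replicates had a median span of 20.8 kb, those covered in 1 replicate only 14.5 kb, those partly covered 37.6 kb and those with none 10.0 kb, against 17.5 kb over all genes. In replicate 1 the share of genes covered was 18.0% under 5 kb, 38.1% from 10 to 20 kb, 27.05% from 100 to 200 kb and 3.70% over 500 kb. The corresponding shares in replicate 2 were 17.4%, 38.2%, 26.9% and 3.70%. From 10 to 50 kb, 37.6% of genes in replicate 1 and 37.3% in replicate 2 were covered, and from 200 kb upward 14.4% in each. The difference between these length classes was 23.1 percentage points ± 0.173 (SD, n = 2 replicates), larger than the spread between replicates.

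The lengths also differed in how many genes had an H3K4me3 peak at an end, from 28.3% under 5 kb to 59.7% from 20 to 50 kb. Among genes with such a peak, the share covered in both replicates was 32.9% under 5 kb, 52.4% from 10 to 20 kb, 40.3% from 200 to 500 kb and 14.6% (6 of 41 genes) over 500 kb. Among genes without one it stayed between 1.14% and 7.83% in the 8 length classes. Over genes, the Spearman correlation of length with mean coverage was 0.181 for 20665 genes, 0.00716 for the 10011 with an H3K4me3 peak at an end and 0.205 for the 10654 without. Genes are not independent replicates, and a short span can be filled by a single interval, so these coefficients are descriptions.

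**Figure D2:**
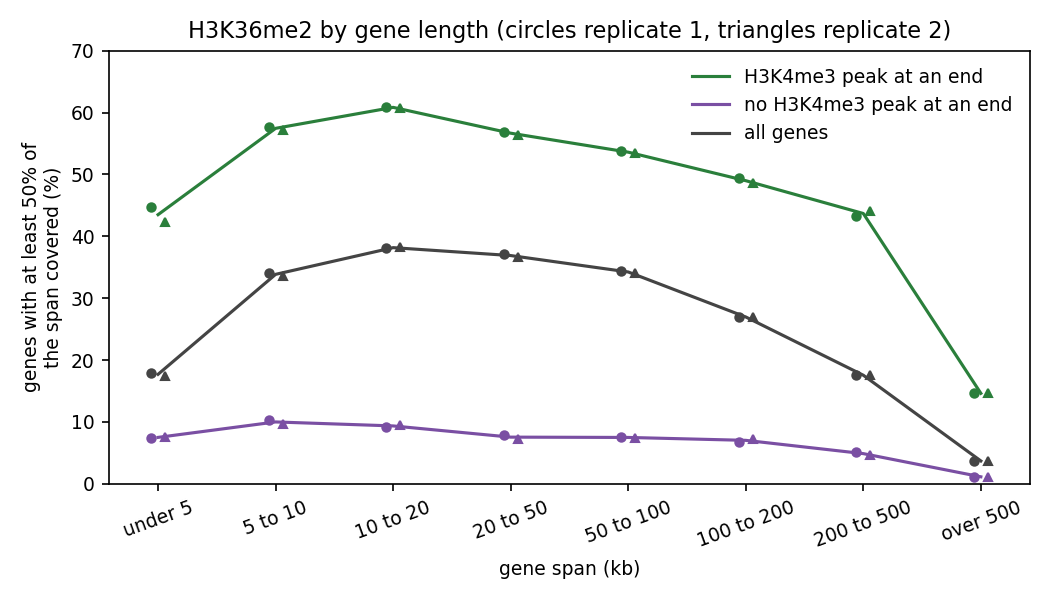
Share of genes with at least 50% of the span covered by H3K36me2 (vertical, percent) in 8 classes of gene span (horizontal, kb), for all genes and for genes with and without an H3K4me3 peak at an end. Circles are replicate 1, triangles replicate 2 and lines their mean. The green line lies above the violet one in each class, and both fall toward the longest genes.

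The way a gene was filled changed with its length. Covered genes under 20 kb held a median of 1 interval in each replicate, and genes of 20 to 50 kb held 2. From 100 to 200 kb the median was 10 intervals. The 8 covered genes over 500 kb held a median of 37 intervals in replicate 1 and 35 in replicate 2, so the longest genes were covered by many separate intervals and not by 1 continuous domain. The longest was Dlgap1, a postsynaptic scaffold gene at chr17:69969073-70821413 (GRCm38), with 71.4% of 852 kb in replicate 1 and 66.3% in replicate 2. Exoc4, a subunit of the exocyst complex, was covered over 62.9% and 66.4% of 725 kb. Zfhx3, a homeobox zinc finger factor, was covered over 84.1% and 83.0% of 682 kb. Foxp1, a forkhead factor of lymphocyte development, was covered over 77.0% and 67.8% of 597 kb. Arhgap26, a GTPase-activating protein, had 55.0% and 56.1% of 775 kb.

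H3K36me2 coverage went with H3K4me3 at a gene end. Of the 20665 genes, 10011 (48.4%) had an H3K4me3 peak of either replicate at an end. Of these, 54.8% were covered by H3K36me2 in replicate 1 and 54.3% in replicate 2, against 7.91% and 7.83% of the 10654 genes without such a peak. The difference was 46.9 percentage points in replicate 1 and 46.4 in replicate 2, a mean of 46.7 ± 0.364 (SD, n = 2 replicates). It had the same direction on 19 of 19 autosomes in both replicates. In both replicates together 46.7% of genes with a peak and 6.23% of genes without were covered, and 15.6% and 76.1% held no H3K36me2. Because the 2 replicates come from 1 line, the SD measures only the spread between these lists.

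Where the strand was known, the end that carried the peak went with the coverage. Of 6250 genes with H3K4me3 at the start only, 50.4% were covered in both replicates. Of 1348 genes with a peak at both ends, 43.8% were covered, and of 524 genes with a peak at the far end only, 19.5%. Genes with neither came to 6.29% of 8335. The median span was 25.2 kb with a peak at the start only, 7.13 kb at both ends and 13.5 kb at the far end only. In a short gene 1 peak can touch both ends. Of gene base pairs, 37.5%, 44.3% and 11.4% in these classes were covered in both replicates, so the order of the first 2 depended on the measure. Marks of active promoters that accompanied H3K4me3 split the genes further. Among genes with H3K4me3 at an end, 48.6% of the 9296 with an ATAC-seq peak there were covered, against 22.2% of the 715 without. Genes with H3K4me3 and no H3K27ac at an end were covered in 10.6% of 227 cases, and genes with H3K27ac and no H3K4me3 in 37.7% of 289. With neither, 5.35% of 10365 genes were covered.

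Promoter sequence is shown for 4 example genes from these classes, which are not all typical of them in CG content. Shown are the 250 bases before the RefSeq transcription start in GRCm38.p6. They run from 5′ to 3′ on the gene's strand, with each CG dinucleotide in capitals. Promoters were matched for 16457 of the 20665 genes. Cd3g, a chain of the T cell receptor complex, and Polr2a, the large subunit of RNA polymerase II, had H3K4me3 at the start and were covered by H3K36me2. Morf4l1, whose product reads methylated H3K36, had H3K4me3 at the start and no H3K36me2. Pax6, a factor of eye and brain development, had neither.
Cd3g, chr9:44980432-44980681, minus strand: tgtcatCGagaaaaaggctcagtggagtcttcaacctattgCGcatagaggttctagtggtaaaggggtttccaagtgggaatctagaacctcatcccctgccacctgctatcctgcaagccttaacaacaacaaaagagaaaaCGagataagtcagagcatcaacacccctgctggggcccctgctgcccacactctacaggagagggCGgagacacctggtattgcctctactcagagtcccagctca
Polr2a, chr11:69758634-69758883, minus strand: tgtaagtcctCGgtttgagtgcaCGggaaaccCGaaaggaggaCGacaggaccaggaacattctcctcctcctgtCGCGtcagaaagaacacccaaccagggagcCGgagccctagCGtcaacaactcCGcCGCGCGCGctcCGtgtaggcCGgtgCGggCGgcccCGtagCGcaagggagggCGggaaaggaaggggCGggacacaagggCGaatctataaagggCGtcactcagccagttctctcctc
Morf4l1, chr9:90114821-90115070, minus strand: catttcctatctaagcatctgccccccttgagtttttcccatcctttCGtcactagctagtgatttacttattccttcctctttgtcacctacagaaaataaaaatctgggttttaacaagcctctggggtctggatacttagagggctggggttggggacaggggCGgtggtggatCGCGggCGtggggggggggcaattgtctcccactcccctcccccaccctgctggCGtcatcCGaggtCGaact
Pax6, chr2:105668646-105668895, plus strand: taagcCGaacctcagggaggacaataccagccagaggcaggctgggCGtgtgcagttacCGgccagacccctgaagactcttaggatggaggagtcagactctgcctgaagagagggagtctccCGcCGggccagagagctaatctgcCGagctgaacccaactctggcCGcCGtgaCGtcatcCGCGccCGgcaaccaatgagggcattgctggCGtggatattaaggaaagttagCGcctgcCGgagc

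The Cd3g window held 4 CG dinucleotides, the Polr2a window 23, the Morf4l1 window 8 and the Pax6 window 15. H3K4me3 peaks covered 100% of the first 3 windows in both replicates and 0% of the Pax6 window. H3K36me2 covered 0% of each of the 4 windows in both replicates. It nevertheless covered 90.5% of the Cd3g span in replicate 1 and 90.2% in replicate 2, and 92.6% and 94.2% of the Polr2a span, against 0% and 0% at Morf4l1 and at Pax6. The mark thus lay over the bodies of Cd3g and Polr2a and not over the bases shown.

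Over all matched promoters the median was 10 CG dinucleotides in 250 bases, and 51.8% of promoters held 10 or more. Genes with H3K4me3 at the start only had a median of 17 when covered in both replicates (3152 genes), 17 when covered in 1 replicate only (943) and 15 when free of H3K36me2 (696). Without H3K4me3 at an end, the median was 9 in covered genes (524) and 3 in genes free of the mark (6350). CG counts therefore differed with H3K4me3 and, in both groups, with H3K36me2, where the medians lay closer together among H3K4me3 genes. With H3K4me3 at the start only, 82.1% of promoters of covered genes and 66.7% of those free of H3K36me2 held 10 or more. Without H3K4me3 at an end, the shares were 47.5% and 23.1%. Among genes with H3K4me3 at the start only, the quartiles of covered genes, 12 and 24, overlapped those of genes free of H3K36me2, 7 and 21. Without H3K4me3 at an end, the quartiles were 3 and 18 in covered genes and 1 and 8.75 in free ones, which overlap too. Of the windows shown, Cd3g with 4 CG dinucleotides lay below the quartiles of its class, and Pax6 with 15 lay above. The Polr2a and Morf4l1 windows lay within theirs.

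The position of H3K36me2 along genes was followed in 3670 genes of 20 kb or more with H3K4me3 at the start only. In the first kb inside the gene, H3K36me2 covered 15.9% of base pairs in replicate 1 and 11.8% in replicate 2, and in the last kb before the start 14.2% and 11.4%. From 2 to 3 kb inside it covered 41.1% and 39.5%, and from 5 to 6 kb 53.3% and 52.6%, close to the values of 54.7% and 55.8% at 19 to 20 kb. From 9 to 10 kb before the start it covered 27.2% and 26.7%, so coverage was lowest in the kb on either side of the start. H3K4me3 peaks had the opposite profile, with 88.8% of the first kb and 1.84% from 5 to 6 kb. In 3321 genes of the same length without H3K4me3 at an end, the first kb held 6.14% and 5.99%. The values were 9.12% and 8.92% from 9 to 10 kb before the start and 8.32% and 8.44% from 19 to 20 kb inside. A shallow minimum was thus present there too, but inside the gene. It was 5.41% from 3 to 4 kb in replicate 1 and 5.29% from 4 to 5 kb in replicate 2.

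In 1831 of these genes that were covered in both replicates, the H3K4me3 peaks reached a median of 1405 bp into the gene. The first base pair under H3K36me2 lay at a median of 1479 bp in replicate 1 and 1676 bp in replicate 2. The start base itself was covered in 23.5% and 17.0% of these genes, and the first H3K36me2 base lay beyond the H3K4me3 edge in 50.7% and 54.1%. Starts of H3K36me2 lie on bins of 200 bp, which limits these distances.

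At the far end the mark ran past the gene. In the same 3670 genes, H3K36me2 covered 51.5% of the last kb in replicate 1 and 52.4% in replicate 2, 49.2% and 50.4% of the first kb beyond, and 26.01% and 24.99% from 9 to 10 kb beyond. Neighbouring genes can add to the values beyond the end. Among 1311 genes with no protein-coding gene within 20 kb past the end, it covered 42.6% and 44.9% of the last kb, 25.4% and 25.2% from 3 to 4 kb beyond, 12.6% and 11.9% from 9 to 10 kb and 9.72% and 10.3% from 19 to 20 kb. Coverage therefore fell with distance past the end in these genes also.

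**Figure D3:**
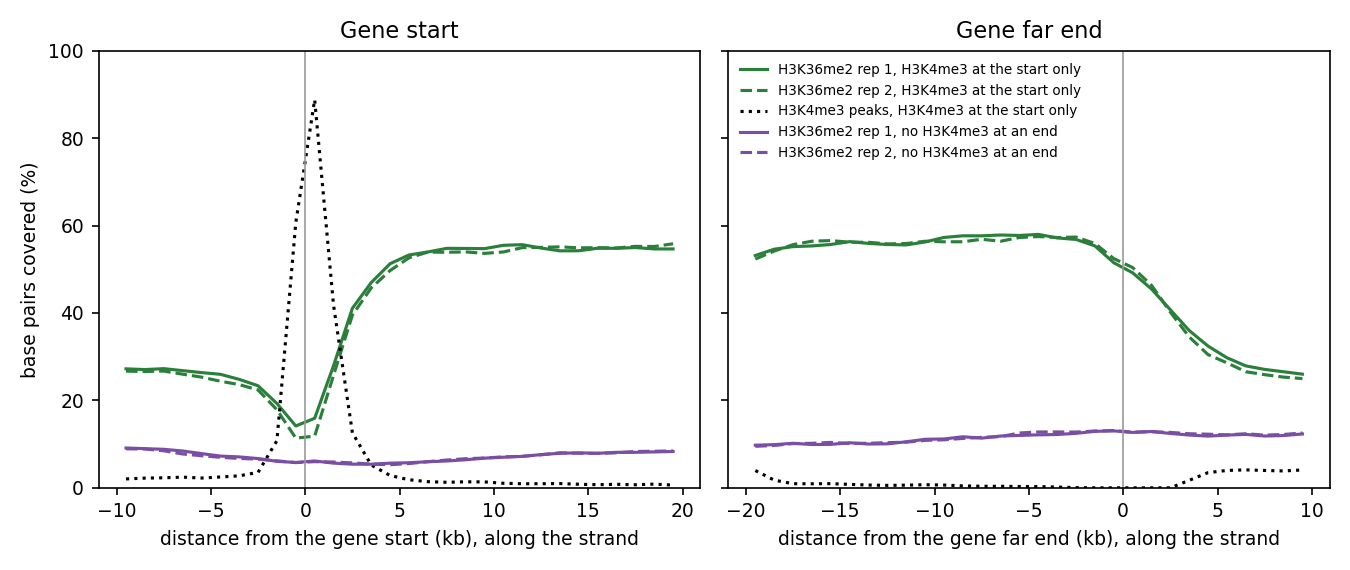
Percent of base pairs covered (vertical) in 1 kb steps from the gene start (left, 10 kb outside to 20 kb inside) and from the far end (right, 20 kb inside to 10 kb outside), for genes of 20 kb or more. Solid and dashed lines are H3K36me2 replicates 1 and 2, green for 3670 genes with H3K4me3 at the start only and violet for 3321 genes without H3K4me3 at an end, and the dotted line shows H3K4me3 peaks of the green set. In the green set H3K36me2 is lowest in the kb before the start, at 14.2% and 11.4%, H3K4me3 is highest in the kb after it, at 88.8%, and H3K36me2 falls off past the far end.

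Most genes covered in both replicates had H3K4me3 at an end (4680 of 5344, or 87.6%), and 664 did not. Of these 664, 222 had an H3K4me3 peak elsewhere in the span, 109 had H3K27ac at an end and 206 overlapped another protein-coding gene. The remaining 236 had none of these. The 5 longest all belonged to the first kind: besides Dlgap1 and Zfhx3, they were Snd1, a Tudor domain nuclease with 71.9% in replicate 1 and 68.8% in replicate 2, Aff3, an AF4 family factor of lymphoid cells with 84.1% and 84.5%, and the ubiquitin ligase gene Hecw2 with 55.8% and 58.2%.

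The converse class held 1560 genes with H3K4me3 at an end and no H3K36me2 in either replicate. They had a median span of 9.81 kb, against 21.9 kb for the 4680 genes with H3K4me3 that were covered in both. An ATAC-seq peak at an end was found for 82.1% of them and H3K27ac for 91.7%, against 96.6% and 99.5% of the covered genes. H3K27me3 in the span was found for 294 of the 1560 and for 41 of the 4680. The longest were Dlg2, a synaptic scaffold of 1973 kb, and Ctnna3, an alpha catenin of 1574 kb, each with H3K4me3 at the start. Magi1, a junction scaffold of 608 kb, had H3K4me3 at the start too, while Ptprg and Kalrn carried it at the far end only. All 5 had 0% in both replicates.

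H3K36me2 and H3K27me3 rarely filled the same gene. Of the 5344 genes covered by H3K36me2 in both replicates, 2 were covered over at least 50% by H3K27me3 in its replicate 1 and 1 in its replicate 2. Among the 9672 genes with no H3K36me2, the shares were 15.2% and 18.2%, and over all genes 7.52% and 9.02%. Intervals of different marks can overlap, so the calls do not exclude each other by construction. With any H3K27me3 counted, 1.16% of covered genes and 40.4% of genes without H3K36me2 held some.

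Of 20 genes of T cell surface and signalling proteins, 10 were covered in both replicates, 3 in 1 replicate, 5 in part and 2 not at all, with list medians of 59.8% in replicate 1 and 68.4% in replicate 2, where the median over all genes was 0% in each. Over all genes 25.9% were covered in both replicates and 9.25% in 1 only, but 16 of the 20 carried H3K4me3 at an end, and among all genes with such a peak 46.7% were covered in both, so the count of 10 was near that share. Lat, the adaptor of the T cell receptor, had 100% and 100%. Kinase genes that act downstream of the receptor were covered in both replicates, Lck with 93.7% and 96.0%, Fyn with 95.0% and 92.7% over 196 kb, and Zap70 with 92.4% and 72.4%. Cd5 and Cd6, surface proteins that tune receptor signalling, had 96.2% and 90.4%, and 82.3% and 97.5%.

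The 3 CD3 genes, which lie side by side on chromosome 9 and encode chains of the receptor complex, did not share 1 pattern. Cd3g had 90.5% in replicate 1 and 90.2% in replicate 2, Cd3e had 0% and 61.0%, and Cd3d had 0% and 0.984%. All 3 had H3K4me3 at an end. The coreceptor genes were low: Cd4 had 18.9% and 18.7% with H3K4me3 at an end, and Cd8a and Cd8b1 had 0% in both replicates and no such peak. Ptprc, the CD45 phosphatase, had 23.0% and 20.3% despite its H3K4me3 peak, and Cd247, without a peak, had 39.2% and 28.1%.

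Of 12 transcription factors of the T lineage, 8 were covered in both replicates and 2 in 1 replicate, where the shares over all genes were 25.9% and 9.25% and the share covered in both among H3K4me3 genes was 46.7%. With a threshold of 75% of the span, 4 of the 12 were covered in both. H3K4me3 at an end was present in 10 of the 12. Tcf7, a Wnt-responsive factor of early T cells, had 97.3% in replicate 1 and 93.8% in replicate 2, and Bcl11b, needed for T cell commitment, had 85.1% and 84.3%. Ikzf1 had 87.0% and 82.5%, and Zbtb7b, which directs the CD4 lineage, had 90.8% and 82.3%. Gata3 had 51.8% and 25.9% and Lef1 51.5% and 43.1%, so both were covered in replicate 1 only, near the threshold. Satb1, a chromatin organiser of thymocytes, had 0% and 0% and no H3K4me3 at an end.

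Of 10 B lineage genes, 0 were covered in either replicate and 6 held none, where 25.9% of all genes were covered in both replicates and 46.8% held none. The highest, Fcer2a, a receptor for IgE, had 32.5% in replicate 1 and 18.1% in replicate 2. Of 10 myeloid genes, 0 were covered and 7 held none, and Spi1, the PU.1 factor, had 18.6% and 0%. All 16 developmental transcription factors, among them Pax6, Neurod1, Gata4 and Olig2, had 0% in both replicates, as did 46.8% of all genes, and 8 of the 16 held some H3K27me3. The 14 neuronal synapse and adhesion genes, with spans of 1060 to 2271 kb, were at or below 5.06%, the value of Nrxn3 in replicate 2, and 10 of them held some H3K27me3. Low coverage was shared by long genes in general. Of all genes over 500 kb, 3.70% were covered in both replicates, and the longest of these, Dlgap1, spanned 852 kb. H3K4me3 at an end was present in 3 of the B lineage, 2 of the myeloid, 4 of the developmental and 2 of the neuronal genes.

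**Figure D4:**
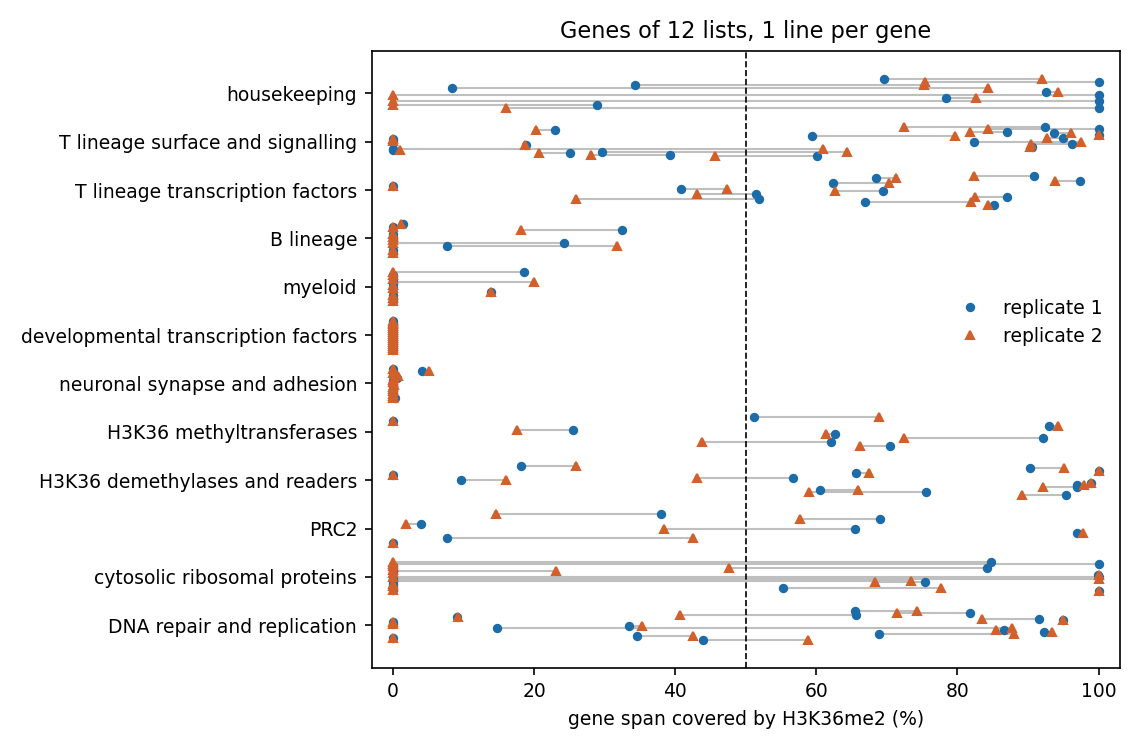
Percent of the gene span covered by H3K36me2 (horizontal) for the genes of 12 lists (vertical), with 1 line per gene joining replicate 1 (blue circle) and replicate 2 (orange triangle). The dashed line marks 50%. Genes of B, myeloid, developmental and neuronal lists stay left of it, while many housekeeping and ribosomal genes span from 0 or near 0 to 100% between the replicates.

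Of 8 genes listed as H3K36 methyltransferases, 5 were covered in both replicates, Setd3 among them. The shares were 25.9% over all genes and 46.7% over genes with H3K4me3 at an end, which all 8 carried. The count was 2 when base pairs covered in both replicates were required and 1 with a threshold of 75%. That 1 gene was Setd3, with 92.9% in replicate 1 and 94.2% in replicate 2, which is not among the H3K36me2 writers named above. Nsd2 had 92.1% in replicate 1 and 72.4% in replicate 2, Nsd3 62.7% and 61.3%, and Ash1l 70.4% and 66.2%. Nsd1 had 62.0% and 43.8% and fell on both sides of the threshold. Setd2, which makes the trimethyl form, had 25.6% and 17.6%, and Setmar had 0% and 0%, although both carried H3K4me3 at the start.

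Of 13 demethylase and reader genes, 9 were covered in both replicates, against 25.9% of all genes and 46.7% of those with H3K4me3 at an end, which 10 of the 13 carried. The count was 6 when base pairs covered in both replicates were required and also with a threshold of 75%. The demethylase genes Kdm2b, with 97.0% and 92.1%, Kdm4a, with 97.0% and 97.9%, and Kdm4b, with 99.0% and 99.0%, were close to full, and Kdm2a had 60.5% and 65.9%. Kdm4c had 9.71% and 16.03% and no H3K4me3 at an end. Dnmt3a, a DNA methyltransferase whose PWWP domain binds methylated H3K36, had 95.4% and 89.1%. Of 7 PRC2 genes, 2 were covered in both replicates, against 25.9% of all genes and 46.7% of those with H3K4me3 at an end. The count was 1 when base pairs covered in both replicates were required. Ezh1, a catalytic subunit, had 97.0% and 97.7%, while the other catalytic subunit gene Ezh2 had 65.5% and 38.5%, Suz12 had 38.0% and 14.6% and Jarid2 had 4.00% and 1.78%. All 7 carried H3K4me3 at an end.

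Housekeeping and ribosomal genes, most of them short, had the highest shares of genes covered in 1 replicate only among the 12 lists. Of 10 housekeeping genes, 4 were covered in both replicates and 5 in 1 only, where the shares over all genes were 25.9% and 9.25%. Of the 10, 9 carried H3K4me3 at an end, and 46.7% of all genes with such a peak were covered in both replicates. The median span of the list was 5.17 kb. Among H3K4me3 genes, 21.2% of those under 5 kb and 20.5% of those from 5 to 10 kb were covered in 1 replicate only. The actin gene Actb had 100% in replicate 1 and 15.96% in replicate 2, the elongation factor gene Eef2 100% and 0%, and the chaperone gene Hsp90ab1 100% and 0%. Ppia, which encodes cyclophilin A, went the other way with 8.43% and 84.4%. Of 17 cytosolic ribosomal protein genes, 4 were covered in both replicates, 6 in 1 only, 1 in part and 6 not at all, where 9.25% of all genes and 21.2% of genes under 5 kb with H3K4me3 were covered in 1 replicate only. Rpl10a had 100% and 100%, Rps14 99.9% and 100%, Rpl8 0% and 100%, and Rplp0 100% and 0%. Of these 17 genes, 15 had H3K4me3 at an end, and their median span was 3.95 kb, shorter than the median H3K36me2 interval, so a single interval can fill such a gene.

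Of 16 genes of DNA repair and replication, 7 were covered in both replicates and 3 in 1 only, against 25.9% and 9.25% of all genes. Of the 16, 14 carried H3K4me3 at an end, and 7 of 16 was near the 46.7% of all such genes that were covered in both. The replicative helicase genes Mcm2, with 92.3% in replicate 1 and 93.5% in replicate 2, and Mcm3, with 86.7% and 85.5%, were covered, whereas Mcm5 had 14.8% and 87.7%. Pold1, the catalytic subunit of DNA polymerase delta, had 95.0% and 95.0%. Atr, a checkpoint kinase gene, had 0% in both replicates with H3K4me3 at an end.

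Coverage differed between chromosomes more than between replicates. Among genes with H3K4me3 at an end, the share covered in both replicates had a median of 48.6% over the 19 autosomes. It was highest on chromosome 5, with 66.8% of 639 genes, and lowest on chromosome 14, with 11.5% of 338 genes, and chromosome 16, with 17.1% of 316. Replicate 1 covered 19.2% of the chromosome 14 genes and replicate 2 covered 17.5%, and on chromosome 16 they covered 27.2% and 26.6%. The largest gap between replicates on any autosome was 6.44 percentage points, so both chromosomes stood apart in each list. Among H3K4me3 genes of 20 to 100 kb these chromosomes were again low, with 13.0% of 154 genes on chromosome 14 and 15.4% of 162 on chromosome 16, against 69.6% of 309 on chromosome 5 and 70.4% of 159 on chromosome 15.

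The H3K4me3 genes of chromosomes 14 and 16 were more often partly covered than those of any other autosome. On chromosome 14, 51.5% of them held some H3K36me2 below 50% and 23.4% held none, and on chromosome 16 the shares were 47.2% and 16.1%. Chromosome 1 came next, with 33.6% and 14.1%, and on most autosomes partly covered genes outnumbered free ones. The median interval was 3799 bp in replicate 1 and 3599 bp in replicate 2 on chromosome 14, and 4399 and 3799 bp on chromosome 16. Chromosome 13 was close to chromosome 16, with 4599 and 4199 bp, and chromosome 5 had 6799 bp in both replicates. Of promoter marks, H3K27ac differed little: 96.4% of the H3K4me3 genes of chromosome 14 and 98.1% of those of chromosome 16 had H3K27ac at an end, against 97.0% on chromosome 5. An ATAC-seq peak at an end was found for 87.3% of the H3K4me3 genes of chromosome 14, the lowest share of the 19 autosomes, and 90.5% of those of chromosome 16, against 95.3% on chromosome 5, and the part of this difference in the result was not tested. H3K27me3, called with the same tool, covered 4.42% and 5.39% of gene base pairs on chromosome 14 and 5.84% and 6.80% on chromosome 16, against 7.81% and 9.59% on chromosome 5. Chromosome 4 was as low for H3K27me3, with 4.95% and 5.73%, but not for H3K36me2, with 50.2% of its H3K4me3 genes covered in both replicates. The share of reads from each chromosome and its copy number in EL4 cells were not measured here, and their part in this result was not tested.

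**Figure D5:**
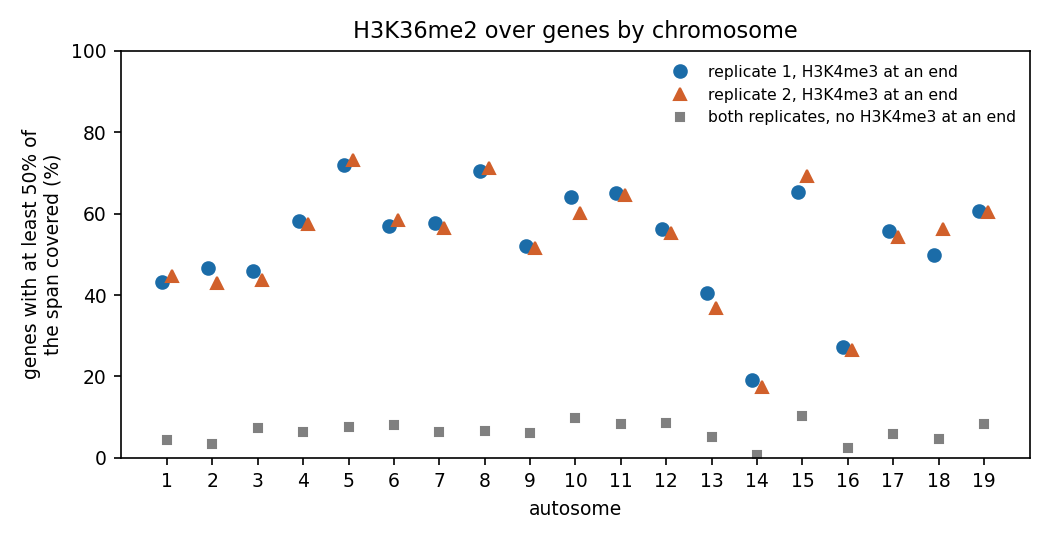
Share of genes with at least 50% of the span covered by H3K36me2 (vertical, percent) on each of the 19 autosomes (horizontal), for genes with H3K4me3 at an end in replicate 1 (blue circles) and replicate 2 (orange triangles) and for genes without H3K4me3 at an end in both replicates (grey squares). Chromosomes 14 and 16 have the lowest values in both replicates, and the replicates lie within 6.44 percentage points of each other.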

How the data were processed

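EL4 cells were profiled by ChIP-seq and ATAC-seq. Per the methods, the authors aligned reads to GRCm38 (STAR 2.5 in the submitters' processing notes), kept unique alignments, treated duplicates with Picard, and called broad domains (H3K36me2, H3K27me3) with Epic and other peaks with MACS2, with the input library as background for ChIP-seq. The deposited lists hold the start and end positions of intervals per replicate, in base pairs, and the authors gave no score, count or signal, so depth and precision per value are unknown. Of 15 samples, the 12 with an interval list were used, and the other 3 (input and RNA-seq) were not analysed here. The methods state that reads on sex chromosomes were discarded, yet the lists hold intervals on chromosome X, which were left out.

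Overlapping or adjoining intervals were merged within a replicate, and the percent of each gene span (RefSeq, GRCm38.p6) under intervals was computed with Python 3.11.15, numpy 2.4.6 and pandas 2.3.3. Covered base pairs were the same as those from bedtools 2.31.1 in 20665 of 20665 genes, and the code was tested on simulated data. Strand came from RefSeq promoters and was known for 16457 genes. Gene positions were used as listed, and some lie at the very start of chromosome 1, such as Csprs at 111558 to 163011 bp. Whether reads can align there was not checked, and Csprs counts among the genes with no H3K36me2. Overlaps needed 1 bp. A gene end reached from 3 kb outside to 2 kb inside, and H3K4me3 peaks of both replicates were merged. The named genes of the length and replicate classes were the longest, the nearest to 50% or those with the widest replicate gap among spans of 20 kb or more, and members of the 12 gene lists were named as examples; some genes that met these rules are not reported here. The gene lists and the genes to describe were chosen with earlier results of these data known. Not autosomal, and so not measured, were Hprt, Pgk1, Dmd, Rbbp7 and Rps4x. Where 2 replicates are averaged, the SD is given; no p-value was computed. The alternatives were other thresholds, interval filters, gene sets, end windows, each replicate alone and, chosen after seeing the data, the autosomes without chromosomes 14 and 16.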

Additional observations from a re-analysis of the deposited data

Results flagged for a closer look

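Although reads on sex chromosomes were described as discarded, the H3K36me2 lists held 331 intervals on chromosome X in replicate 1 and 350 in replicate 2, outside the autosomal analysis. Of 966 protein-coding genes there, 3 were covered over at least 50% in both replicates (0.311%), and of the 295 with H3K4me3 at an end, 1 was (0.339%), a lower share than on any autosome.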

How the results depend on the processing

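No paired analysis was possible because the results come from no test and the replicate numbers are only names of lists. The number of genes covered in both replicates (5344) moved by over 1.5 times only with a threshold of 75% of the span, to 3138, and with either replicate taken alone it was 6265 to 6334. The number covered in 1 replicate only (1911) lay between 1446 and 1931 under the alternatives, and has no value with a replicate left out. The difference between genes of 10 to 50 kb and of 200 kb or more (23.1 points) moved by more than the replicate SD to 25.4 at a threshold of 25%, 18.8 at 75%, 22.9 in genes overlapping no other gene and 23.9 without chromosomes 14 and 16, and with either replicate alone was 22.9 to 23.2. The H3K4me3 difference (46.7 points) kept its direction under every alternative tried, with 46.4 to 46.9 from either replicate alone. It moved by more than the replicate SD to 46.1 with intervals of at least 2000 bp, 47.1 with intervals joined over gaps of up to 1000 bp, 56.9 at a threshold of 25%, 30.6 at 75%, 48.3 for peaks at the start only, 40.6 as the mean of length classes, 47.1 in genes of 20 kb or more, 50.0 without the outer 2 kb of genes over 10 kb and 48.4 without chromosomes 14 and 16. Of 96 list counts under alternatives, 84 stayed within 1.5 times and 12 did not; housekeeping genes went from 4 to 7 and ribosomal genes from 4 to 8 with replicate 1 alone, and methyltransferase genes from 5 to 2 and PRC2 genes from 2 to 1 when base pairs covered in both replicates were required. The cause of these changes was not tested. Without reads or scores, an interval missed at low depth cannot be told apart from absent H3K36me2.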
